A study of Mus musculus with 54 samples.

Results

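Whether lack of the chemokine receptor Ccr2 changed the response of microglia to peripheral LPS was examined as the genotype by LPS interaction, that is, the LPS change in Ccr2-/- microglia minus the LPS change in WT microglia. It was chosen by the sample labels alone and rests on 12 of the 54 bulk RNA-seq libraries of the series, 3 in each of 4 groups. WT mice were C57BL/6JCrl and Ccr2-/- mice carried the Ccr2tm1Ifc allele on a B6.129S4 background. They came from different suppliers and are not described as littermates. In each genotype, 3 mice had been treated with the vehicle of BLZ945, an inhibitor of the receptor CSF1R that depletes macrophages, 8 weeks before an injection of LPS (WT mice 1, 4 and 6, Ccr2-/- mice V1m, V2m and V4f). The 3 comparison mice of each genotype were labelled untreated and PBS (WT mice 9, 14 and 15, Ccr2-/- mice 1m, 3m and 5f). The LPS change therefore also holds the vehicle treatment, and these cannot be told apart. Microglia were sorted 12 h after injection from brain without the choroid plexuses. All WT libraries are in one count table and all Ccr2-/- libraries in another. Genotype, strain, supplier and table therefore cannot be told apart in a comparison of genotypes. A table-wide shift that is the same with and without LPS drops out of the interaction. An LPS response that differs by strain, supplier or table does not drop out, and it cannot be told apart from one that differs by genotype.

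Microglia are the resident macrophages of the brain parenchyma and keep a profile of homeostatic genes, many of them set by TGF-beta signalling. LPS acts on Toll-like receptor 4. It triggers an early NF-kappaB arm, with cytokines and chemokines, and a type I interferon arm, with interferon-stimulated genes. Systemic LPS also raises circulating glucocorticoids, which induce genes such as Fkbp5. Ccr2 is the receptor for Ccl2, Ccl7 and Ccl12 and is used by monocytes to leave the bone marrow, whereas microglia themselves express little of it.

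Total counts ranged from 7497764 to 11330781 per library, and 11999 of 33280 gene symbols passed the filter on low counts. Ccr2, the targeted gene, was low throughout. In CPM, its counts scaled to a library total of 1e+06, it lay at 7.64, 10.6 and 3.87 in WT PBS mice 14, 15 and 9, and at 6.70, 3.99 and 0.94 in WT LPS mice 1, 4 and 6. In Ccr2-/- microglia it lay at 5.96, 5.10 and 7.10 without and at 4.68, 5.03 and 4.30 with LPS. These levels did not separate the genotypes, so Ccr2 does not check the genotype labels of microglia, and counts over this gene need not come from the part that the allele disrupts. A panel of 9 microglial markers made up 42700 to 44600 CPM in WT PBS, 9890 to 16300 CPM in WT LPS, 55700 to 57100 CPM in Ccr2-/- PBS and 16200 to 18000 CPM in Ccr2-/- LPS libraries, and 8 of the 9 fell after LPS in each genotype. Of the 12 markers of T and NK cells, 10 had at most 3 counts in each library. The 12 neutrophil markers summed to 580 to 821 CPM in WT and 369 to 626 CPM in Ccr2-/- microglia without LPS. With LPS they summed to 226 to 525 CPM and 222 to 260 CPM. The 10 B cell markers summed to 501 to 601 CPM and 580 to 728 CPM without LPS. With LPS this was 61.3 to 96.8 CPM and 81.7 to 100 CPM. The 10 endothelial markers summed to 383 to 495 CPM over the WT and 606 to 738 CPM over the Ccr2-/- libraries. The 8 monocyte markers summed to 8.40 to 12.5 CPM and 10.6 to 17.5 CPM without LPS in WT and Ccr2-/- microglia, and to 29.6 to 90.5 CPM and 108 to 140 CPM with LPS. The 10 markers of border macrophages summed to 600 to 623 CPM and 233 to 283 CPM without LPS and to 1000 to 1300 CPM and 267 to 328 CPM with LPS. Over the 3 of them that were tested the median interaction was -0.66, and 2 had an unadjusted p under 0.05 in edgeR. Despite the removal of the choroid plexuses, 5 of its markers summed to 106 CPM in WT LPS mouse 1 and 82.9 CPM in Ccr2-/- PBS mouse 1m, and to at most 44.8 CPM in the other libraries. The 9 astrocyte markers summed to 262 to 409 CPM over all libraries, with a median interaction of -1.08 over the 8 tested, and the 9 neuronal markers to 14.4 to 39.4 CPM, with one of 0.84. The part of these cells in the results was not tested, and in sorted bulk samples fewer cells of a type and less RNA per cell cannot be told apart.

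No gene passed the test of the interaction. With edgeR's quasi-likelihood test and Benjamini-Hochberg adjustment, 0 of 11999 genes (0%) reached an adjusted p under 0.05 with a log2 interaction beyond 1 in either direction, and the smallest adjusted p was 0.961. An unadjusted p under 0.05 was found for 502 genes (4.18%, where 5% is the share at this threshold without any difference), 164 with a larger signed change in Ccr2-/- microglia and 338 with a smaller one. DESeq2 called 1 gene, Nbeal2, and had 575 genes at an unadjusted p under 0.05. limma voom called 0 genes and had 479. The call also depended on whether low counts were filtered. With a minimum mean of 10 counts, or with the low-count rule of the study, edgeR called 0 genes. With every expressed gene kept it called 37. Among them was the sex-linked Xist, with an adjusted p of 0.0011 in that edgeR fit and an unadjusted p of 0.769 in edgeR with the filter.

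The LPS response itself was broad in both genotypes and ran in the same direction. In WT microglia 1135 genes were higher after LPS (9.46% of those tested) and 849 lower (7.08%). In Ccr2-/- microglia 1243 were higher (10.4%) and 1184 lower (9.87%). Both genotypes called 1626 genes in the same direction, 919 higher and 707 lower, which is 82% of the WT calls and 67% of the Ccr2-/- calls, and 0 genes in opposite directions. These responses share no library. Across 8686 genes that averaged 10 CPM or more, the log2 LPS changes had a Pearson r of 0.94 and a Spearman rho of 0.90 between genotypes, a description across genes that share gene length, composition and sorting gate and are not independent replicates.

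**Figure D1:**
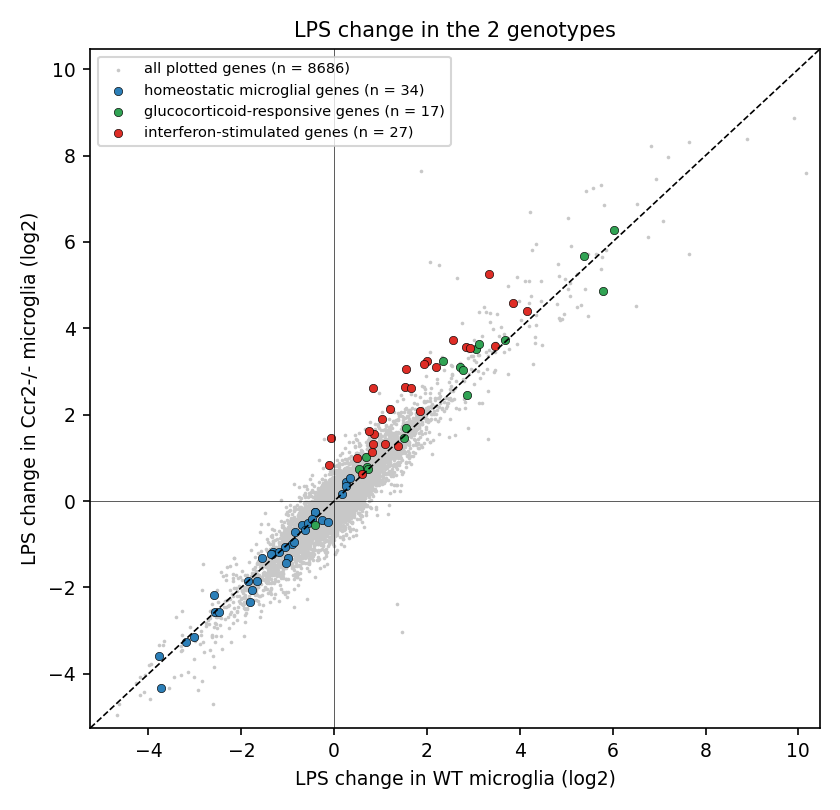
Log2 LPS change in WT microglia (x axis) against that in Ccr2-/- microglia (y axis), a point for each of 8686 genes averaging 10 CPM or more and above the floor of 3 counts in all groups, from 3 LPS and 3 PBS libraries of each genotype. Homeostatic, glucocorticoid-responsive and interferon-stimulated genes are coloured, and the dashed line marks equal change. Points run along the line of equal change (r 0.94), and with the filter on low counts edgeR called no gene for the difference between the axes and DESeq2 called 1.

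How well an interaction could have been seen depended on the level and spread of the gene. The median width of the 95% interval was ± 0.73 on the log2 scale over all tested genes, and for 5912 of them (49.3%) the whole interval lay between -1 and 1. Among the 2145 genes averaging 100 CPM or more the median width was ± 0.45, and 1918 intervals (89.4%) lay within those limits. Among the 3292 genes under 10 CPM the width was ± 2.28, and 19 intervals (0.577%) did. The genes called for LPS in either genotype and with at least 10 CPM numbered 1985. Their median width was ± 0.78, 826 intervals (41.6%) lay within -1 and 1, and 121 had an unadjusted p under 0.05. A difference of more than 2-fold between genotypes was thus outside the interval for most genes with at least 100 CPM, but not for most genes that responded to LPS.

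The WT LPS mice were less alike than the Ccr2-/- LPS mice. Over the genes that the other genotype's comparison called higher, the median log2 change of a library over its own PBS mean was 1.83 in WT mouse 1, 0.98 in WT mouse 4 and 1.44 in WT mouse 6. It was 1.66, 1.54 and 1.69 in V1m, V2m and V4f. Over the genes called lower it was -1.79, -0.93 and -1.28 in the WT mice and -1.67, -1.56 and -1.78 in the Ccr2-/- mice. WT mouse 4 thus had the smallest response of the WT mice and WT mouse 1 the largest. Xist RNA, made in female cells, marked WT mouse 1, WT PBS mouse 9, Ccr2-/- mice 3m and 5f and V4f, so that sexes were mixed unevenly, and 3m carried it although the other mice with names ending in m did not. With this class as a covariate the interaction count was again 0, and its part in single values was not tested. Without WT mouse 4 the WT calls rose from 1984 to 2478, and without WT mouse 1 they dropped to 1472. The interaction count stayed at 0 with each of the 12 libraries left out in turn, with 427 to 1231 genes at an unadjusted p under 0.05, the highest number without WT mouse 1.

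Homeostatic microglial genes fell in both genotypes. Of the 34 tested, 18 fell in WT and 19 in Ccr2-/- microglia, none rose, and none had an interaction with an unadjusted p under 0.05. Their median interaction was 0.01, beside -0.05 over all genes tested. P2ry12, the purinergic receptor that directs microglial processes to ATP, stood at 9684, 10260 and 9238 CPM in the WT PBS mice (14, 15 and 9), scaled by the trimmed mean of M values (TMM) as are all gene levels from here on. It dropped to 568, 1474 and 1176 CPM in WT LPS mice 1, 4 and 6. In Ccr2-/- microglia it went from 15844, 15199 and 15076 CPM (mice 1m, 3m and 5f) to 1582, 1820 and 1372 CPM (V1m, V2m and V4f). The groups with and without LPS did not overlap in either genotype. The log2 changes were -3.18 and -3.27 and the interaction was -0.09 (95% interval -0.85 to 0.67). In every list below, libraries are given in this order.

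Csf1r and Cst3 had narrower intervals than the abundant P2ry12. Csf1r, the receptor that microglia need for survival, had LPS changes of -0.56 ± 0.09 (SE, 3 LPS and 3 PBS libraries) and -0.50 ± 0.09 and an interaction of 0.06 (-0.22 to 0.34). Cst3, which encodes the protease inhibitor cystatin C, had changes of -0.63 ± 0.09 and -0.68 ± 0.09 and an interaction of -0.05 (-0.33 to 0.23). Neither passed the 2-fold limit for an LPS call. The fractalkine receptor Cx3cr1 fell in both genotypes, by 1.35 and 1.22 on the log2 scale, with an interaction of 0.13 (-0.18 to 0.44). Sall1, a transcription factor of microglial identity, fell from 905, 927 and 796 CPM to 172, 269 and 328 CPM in WT and from 677, 660 and 745 CPM to 146, 197 and 154 CPM in Ccr2-/- microglia, with an interaction of -0.30 (-0.85 to 0.26). Olfml3, a further microglial gene, fell by 2.57 and 2.56, with an interaction of 0.00 (-0.47 to 0.48). Tgfb1, the cytokine behind much of this profile, also fell in both genotypes, by 1.26 and 1.55, with an interaction of -0.29 (-0.69 to 0.11). P2ry12, Sall1 and Olfml3 were picked with their values known.

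Of the disease-associated microglia genes, 4 of 16 rose and 4 fell in WT, and 5 rose and 4 fell in Ccr2-/- microglia, with a median interaction of 0.05 over 14 above the floor. Trem2, the lipid-sensing receptor, fell by 1.65 and 1.84, with an interaction of -0.19 (-0.74 to 0.36). Cd9, a tetraspanin, went from 923, 1043 and 1062 CPM to 333, 392 and 314 CPM in WT microglia. In Ccr2-/- microglia it went from 2366, 2071 and 2309 CPM to 900, 677 and 731 CPM. Its level was about the same factor higher in Ccr2-/- microglia with and without LPS, and its interaction was 0.00 (-0.39 to 0.38). Spp1, which encodes the secreted protein osteopontin, rose from 1.69, 4.33 and 3.80 CPM to 626, 235 and 349 CPM in WT and from 5.54, 3.76 and 4.72 CPM to 945, 846 and 659 CPM in Ccr2-/- microglia, with an interaction of 0.52 (-0.67 to 1.72).

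The glucocorticoid-responsive genes rose together in both genotypes. Of 21 tested, 16 rose in WT and 17 in Ccr2-/- microglia, and the median interaction of the 17 that lay above the floor of 3 counts in every group was 0.20 (0.10 without WT mouse 4 and 0.42 without 5f). Fkbp5, a co-chaperone of the glucocorticoid receptor, varied little between mice. It rose from 86.8, 95.3 and 102 CPM to 1158, 1254 and 1224 CPM in WT microglia and from 86.6, 95.3 and 92.7 CPM to 1173, 1273 and 1192 CPM in Ccr2-/- microglia. WT mouse 4 had the highest WT value here, unlike its place in the overall response. The interaction of Fkbp5 was 0.05 (-0.26 to 0.36). Tsc22d3, which encodes the glucocorticoid-induced leucine zipper, rose by 3.05 and 3.53, with an interaction of 0.48 (-0.16 to 1.12). Il1r2, the decoy receptor for interleukin-1, had at most 3 counts in each PBS library and rose at least 832-fold in WT and at least 1420-fold in Ccr2-/- microglia, both against a floor of 3 counts per library. Tsc22d3 and Il1r2 were named with their values known.

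Among LPS sensing and NF-kappaB genes, some rose and a few fell in each genotype. The co-receptor Cd14 rose by 1.70 and 1.78, with an interaction of 0.08 (-0.93 to 1.10). Tlr2, the receptor for bacterial lipoproteins, rose by 2.74 and 3.06, with an interaction of 0.32 (-1.05 to 1.69). Tlr4 itself changed by -0.90 and -0.81, short of the 2-fold limit. Of the 23 LPS sensing genes, 5 rose and 3 fell in WT and 5 rose and 2 fell in Ccr2-/- microglia, with a median interaction of 0.06. Of the 21 with at least 10 CPM, 16 had the whole interval of the interaction between -1 and 1. Of the 28 NF-kappaB and feedback genes, 13 rose and 2 fell in WT and 16 rose and 1 fell in Ccr2-/- microglia, with a median interaction of 0.20 over 25 genes above the floor (-0.01 without WT mouse 4 and 0.51 without WT mouse 1). Il4ra rose by 2.02 and 1.84 and Socs3, an inhibitor of cytokine signalling, by 4.32 and 3.81. Their interactions were -0.17 (-0.78 to 0.43) and -0.52 (-1.25 to 0.22). Tlr4 and Socs3 were named with their values known.

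Most chemokines tested rose, and several of them differed widely between the WT LPS mice. Ccl12, a ligand of Ccr2, went from 34.6, 31.8 and 96.2 CPM to 1966, 61.9 and 1026 CPM in WT microglia and from 121, 70.3 and 104 CPM to 3118, 2157 and 2700 CPM in Ccr2-/- microglia. WT mouse 4 overlapped with the untreated WT mice, whereas the 3 Ccr2-/- LPS mice lay above all others. The interaction was 0.52 with an interval from -2.54 to 3.59, too wide to place it. Ccl2, the main ligand of Ccr2, had the same pattern, with 202, 5.94 and 99.8 CPM in WT LPS mice and 278, 216 and 260 CPM in Ccr2-/- LPS mice, and an interaction of 0.35 (-2.92 to 3.62). Of 11 CC chemokines tested, 7 rose and 2 fell in WT and 8 rose and 2 fell in Ccr2-/- microglia. Of 7 CXC chemokines, 4 and 7 rose. Cxcl16, the ligand of Cxcr6, rose by 1.44 and 2.06, with an interaction of 0.62 (-0.33 to 1.57).

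Tnf rose from 3.14, 4.33 and 2.92 CPM to 174, 39 and 140 CPM in WT microglia and from 8.73, 2.84 and 5.50 CPM to 193, 148 and 115 CPM in Ccr2-/- microglia, with an interaction of -0.33 (-2.00 to 1.34). Il1b rose by 4.19 and 5.08, with an interaction of 0.89 (-0.76 to 2.54). Saa3, an acute phase protein, reached 1850, 100 and 388 CPM in WT and 1539, 644 and 1426 CPM in Ccr2-/- LPS mice, from at most 1.01 CPM in WT PBS and 3.28 to 7.72 CPM in Ccr2-/- PBS mice. Its interaction of -2.58 (-6.80 to 1.65) was negative while its level in each Ccr2-/- LPS mouse lay above that of WT mice 4 and 6, and its starting levels differed as well. Ccl2, Tnf and Il1b were named with their values known. Of 15 cytokines tested, 5 rose and 2 fell in WT and 8 rose and 2 fell in Ccr2-/- microglia, and of 6 acute phase genes 5 rose in each. For these lists the median interactions over members above the floor were 0.33 (9 CC chemokines), 0.62 (5 CXC chemokines), 0.16 (13 cytokines) and -0.51 (3 acute phase genes). They depended on single libraries. Without WT mouse 4 the CC chemokine median was -0.21, and without WT mouse 1 it was 1.02. Without WT PBS mouse 9 the CXC chemokine median was 0.09 and the acute phase median -2.17, and without WT mouse 1 the latter was 0.64. The cytokine median ran from 0.10 to 0.48 with 1 library left out, the lowest without WT PBS mouse 14 and the highest without V4f.

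**Figure D2:**
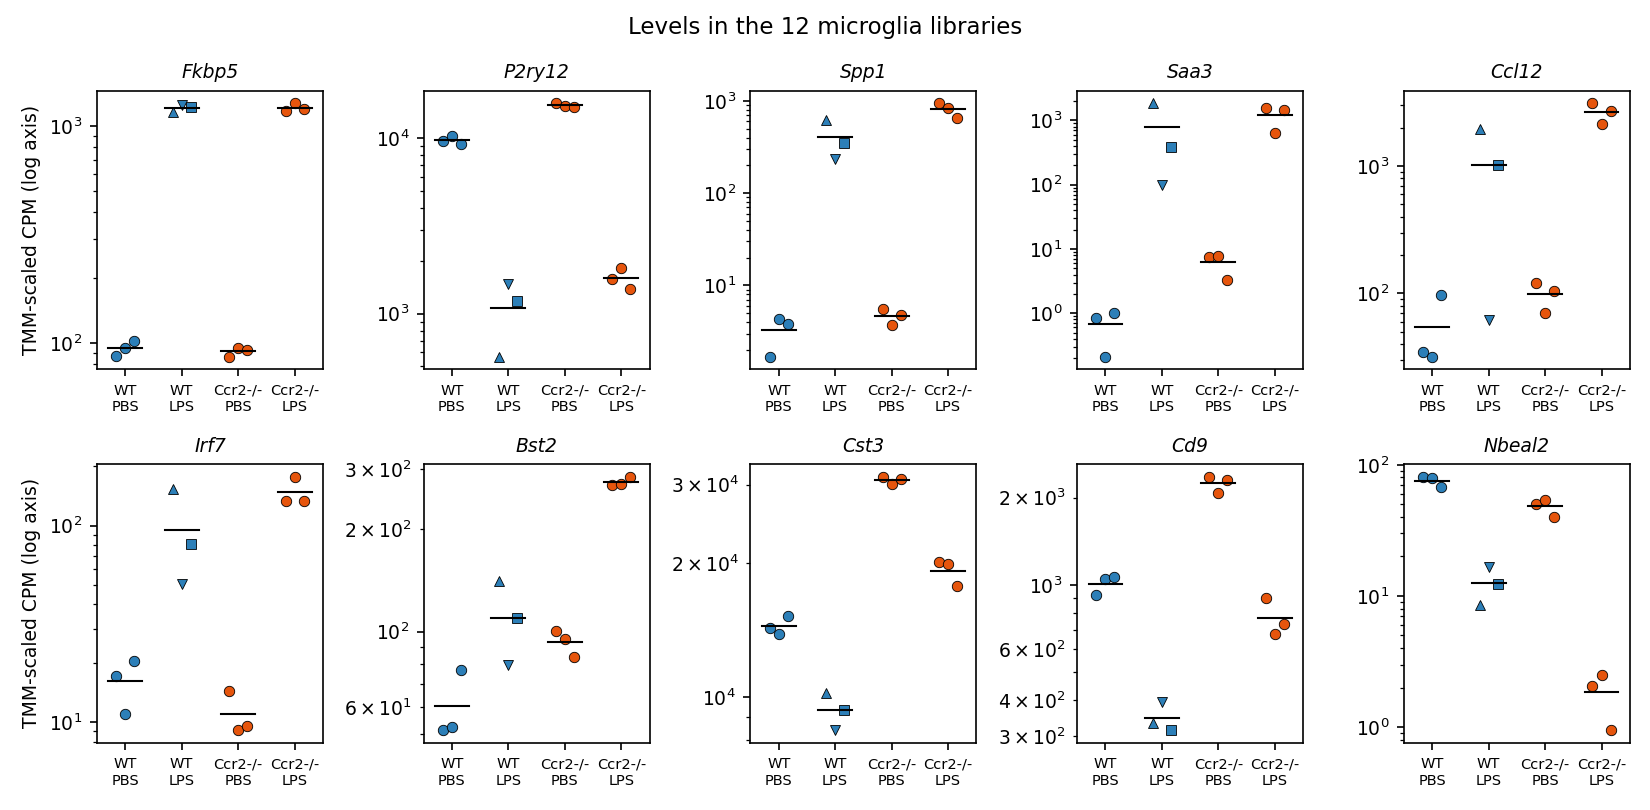
TMM-scaled CPM on a log axis (y axes differ between panels and do not start at 0) for 10 genes by genotype and treatment (x axis), with a point for each of the 12 libraries and a bar at the mean of 3. In WT LPS mice the upward triangle is mouse 1, the downward triangle mouse 4 and the square mouse 6. Fkbp5 and P2ry12 changed alike in both genotypes, the WT LPS mice were spread widely for Ccl12, and Nbeal2 fell to 0.949 to 2.52 CPM in Ccr2-/- against 8.55 to 16.7 CPM in WT LPS mice.

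The interferon-stimulated genes gave the list median farthest above that of all genes. Of the 36 tested, 19 rose in WT and 28 in Ccr2-/- microglia, and none fell. The interaction was positive for 34 of 36, beside 5271 of the 11999 genes tested. All 7 members with an unadjusted p under 0.05 were positive, beside 164 of the 11999 with a positive interaction at that threshold. The median LPS change was 1.21 in WT and 2.38 in Ccr2-/- microglia, and the median interaction was 0.89. No single member passed edgeR's adjusted test with the filter on low counts or with any library left out. With no filter, 24 of the 36 had an unadjusted p under 0.05 in edgeR, beside 620 of 11526 genes above the floor. There edgeR called 4 of the 36, beside 27 of the 11526. The 4 were Ifit2 (adjusted p 0.000393), Irf7 (0.00838), Cmpk2 (0.0118) and Oasl1 (0.0276). That fit also called the sex-linked Xist, Ddx3y and Eif2s3y, whose unadjusted p in edgeR with the filter were 0.769, 0.795 and 0.624. Members of the interferon list were chosen with earlier results known and respond to shared signals, so that they are not independent. Per library, the median change of the list over its own PBS mean was 1.74, 0.67 and 1.23 in WT mice 1, 4 and 6 and 2.13, 2.49 and 2.2 in V1m, V2m and V4f. The genotypes did not overlap, and WT mouse 4 was again the lowest. Without WT mouse 4 the median interaction was 0.61, with 30 of 36 positive, and without WT PBS mouse 9, in which Ifit2 stood at 60.7 CPM against 29.2 and 14.4 CPM in the other WT PBS mice, it was 0.53, with 28 of 36 positive. Over all 12 libraries left out in turn it ranged from 0.53 to 1.16. The monocyte marker sum was also higher in the Ccr2-/- LPS libraries (108 to 140 CPM) than in the WT LPS libraries (29.6 to 90.5 CPM), and its part in the list was not tested.

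Irf7, the transcription factor that amplifies interferon production, rose from 17.1, 11.0 and 20.4 CPM to 153, 50.7 and 80.8 CPM in WT and from 14.5, 9.14 and 9.57 CPM to 133, 177 and 133 CPM in Ccr2-/- microglia. Its interaction was 1.18 (0.10 to 2.26, unadjusted p 0.0341). The LPS levels of the genotypes overlapped, since WT mouse 1 lay within the Ccr2-/- values. Cmpk2, a mitochondrial nucleotide kinase, went from 4.22, 3.07 and 6.84 CPM to 14.9, 7.24 and 10.5 CPM in WT and rose from 1.77, 0.711 and 1.70 CPM to 11.8, 31 and 12.1 CPM in Ccr2-/- microglia, with an interaction of 2.51 (1.05 to 3.97, unadjusted p 0.0023). Here too the LPS levels of the genotypes overlapped, while each Ccr2-/- PBS mouse lay below each WT PBS mouse. Ifih1, a sensor of double-stranded RNA, rose by 1.04 and 1.90, with an interaction of 0.86 (0.18 to 1.55, unadjusted p 0.017). The more abundant Slfn2 rose by 2.92 and 3.55, with an interaction of 0.63 (-0.34 to 1.59). Bst2, which tethers enveloped viruses to the cell, went from 51.3, 52.4 and 77.2 CPM to 140, 79.9 and 109 CPM in WT and rose from 100.3, 95.2 and 84.4 CPM to 270, 271 and 286 CPM in Ccr2-/- microglia, with an interaction of 0.69 (0.12 to 1.27, unadjusted p 0.0218). Irf9, a subunit of an interferon-activated transcription complex, had LPS changes of 0.81 and 1.13, of which the second passed the test, and an interaction of 0.32 (-0.04 to 0.68). Cxcl10, a chemokine induced by interferon, had 0.844, 1.27 and 25.9 CPM in WT PBS mice 14, 15 and 9, so that 1 library set the WT baseline, and its interaction of 3.20 ran from -1.19 to 7.59. Irf7, Cmpk2, Ifih1, Bst2 and Ifit2 were picked after their values were seen, as was Oasl1.

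Interferon-inducible GTPases, heat shock chaperones and MHC class I genes lay above the all-gene median as well. Of 15 guanylate-binding proteins and immunity GTPases, 6 rose in WT and 7 in Ccr2-/- microglia, and the median interaction was 0.64 over 14 above the floor. Gbp7 went from 112, 107 and 131 CPM to 311, 218 and 283 CPM and from 101, 95.0 and 93.3 CPM to 356, 285 and 349 CPM, an interaction of 0.55 (0.11 to 0.99, unadjusted p 0.017). All 12 heat shock chaperones had a positive interaction, with a median of 0.61. In WT microglia 1 rose and 2 fell, and in Ccr2-/- microglia 4 rose. Hsp90ab1, a cytosolic chaperone, went from 574, 684 and 443 CPM to 1192, 406 and 733 CPM in WT and rose from 381, 644 and 498 CPM to 1209, 1032 and 1468 CPM in Ccr2-/- microglia, with an interaction of 0.83 (-0.20 to 1.86). WT mouse 4 lay below the untreated WT mice here. Leaving out WT mouse 4 brought the chaperone median to 0.35 and the GTPase median to 0.33. Of 18 MHC class I and immunoproteasome genes, 17 had a positive interaction with a median of 0.30, which was 0.13 without WT mouse 4 and 0.52 without WT mouse 1. B2m, the invariant light chain, had one of 0.06 (-0.31 to 0.42).

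**Figure D3:**
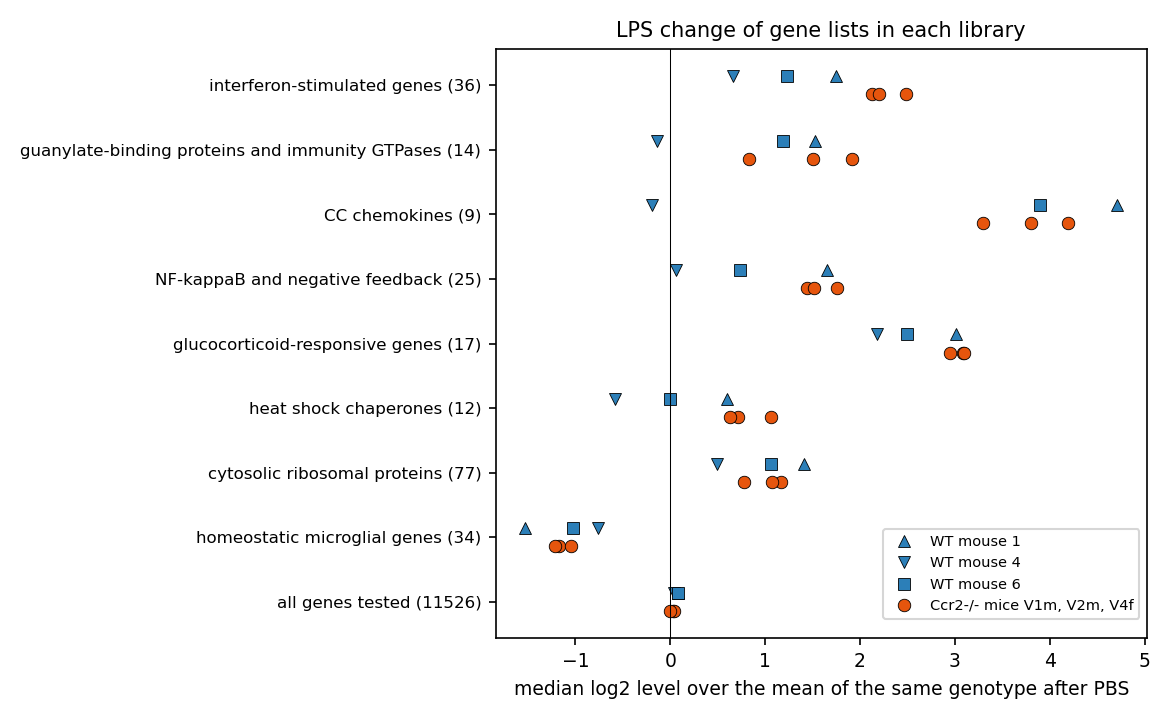
Median log2 change over the members of each gene list (y axis, members in parentheses) in each LPS library, relative to the mean of the PBS libraries of its own genotype (x axis), with 1 symbol per WT mouse and circles for the Ccr2-/- mice. For interferon-stimulated genes the Ccr2-/- libraries (2.13 to 2.49) lay above the WT libraries (0.67 to 1.74), whereas for homeostatic genes (WT -1.53 to -0.76, Ccr2-/- -1.21 to -1.04) they lay within them.

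Cell cycle genes had the lowest list median. Of 30 tested, 1 rose in WT and 4 fell in Ccr2-/- microglia, and the median was -0.58 over 29 genes above the floor. A negative interaction with an unadjusted p under 0.05 was found for 3 of the 30, beside 338 of all 11999 genes. Most were scarce. Top2a, which relaxes DNA during division, lay between 0 and 6.08 CPM in the 6 WT libraries and between 0.316 and 8.13 CPM in the 6 Ccr2-/- libraries, with an interaction of -2.86 (-5.92 to 0.20). The more abundant replication factor Mcm3 had one of 0.10 (-0.41 to 0.60). The 6 members averaging 10 CPM or more had interactions from -0.58 to 0.14. Top2a was named with its values known.

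A further 8 lists had medians between -0.20 and 0.24. Of 77 cytosolic ribosomal proteins, 43 rose in WT and 35 in Ccr2-/- microglia, with a median interaction of -0.02. Rpl4 rose by 1.07 and 1.05, with an interaction of -0.02 (-0.62 to 0.59). Of 93 respiratory chain subunits, 1 rose in WT and 5 in Ccr2-/- microglia, with a median of 0.05. Immediate early genes (21 tested, 7 higher in each genotype) had a median of 0.13 over 20 above the floor, metallothionein and iron genes (11 tested, 5 higher in each) one of -0.08 over 9, and MHC class II genes (6 tested, 1 higher in each) one of -0.15, which was 0.71 without 1m. Fth1, the heavy chain of ferritin, rose by 1.86 and 2.06, with an interaction of 0.20 (-0.69 to 1.08), and Cd74, the MHC class II invariant chain, by 3.02 and 3.03, with one of 0.01 (-1.34 to 1.36). The genes of itaconate, nitric oxide, prostaglandin and glycolysis had a median of -0.09 over 16, with 11 of 20 higher in WT and 12 in Ccr2-/- microglia. Those of sterol synthesis had a median of -0.20 (19 tested, 3 higher in each) and those of the inflammasome 0.24 (13 tested, 3 higher in each). With 1 library left out the ribosomal median ran from -0.25 without WT mouse 4 to 0.21 without WT mouse 1, and that of the itaconate list from -0.29 to 0.15 without the same mice. Pfkfb3, an activator of glycolysis, rose by 2.82 and 2.30, with an interaction of -0.52 (-1.83 to 0.80).

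**Figure D4:**
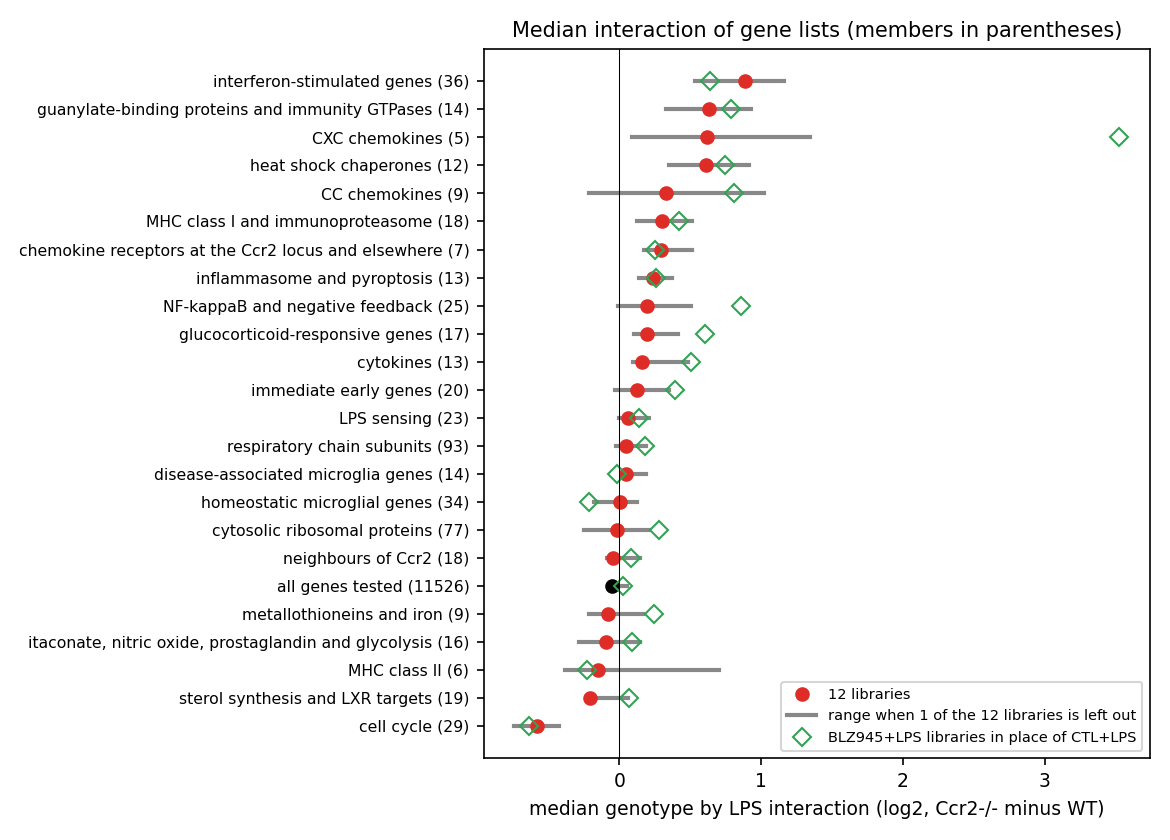
Median log2 interaction of each gene list (x axis) over members above the floor (in parentheses), with circles for the 12 libraries, grey lines for the range when each was left out in turn and diamonds for BLZ945+LPS in place of vehicle LPS libraries. Interferon-stimulated genes (0.89, range 0.53 to 1.16) lay farthest above 0 among lists of over 10 genes and homeostatic genes (0.01) near it.

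The genes with the smallest unadjusted p mostly had a negative interaction, and they are given as values, since none passed edgeR's adjusted test with the filter on low counts. With no filter, edgeR called Nbeal2 (adjusted p 3.38e-05), Hspa1b (0.000188), Xpo7 (0.0205), Prnp (0.0258), Klhdc8b (0.0301) and Plgrkt (0.0322), all of which the filter also keeps. That fit called 37 genes, among them the sex-linked Xist and Ddx3y. Nbeal2, a BEACH-domain protein needed for the alpha granules of platelets, fell from 81.2, 78.9 and 67.6 CPM to 8.55, 16.7 and 12.2 CPM in WT microglia and from 50.3, 54 and 40.1 CPM to 2.06, 2.52 and 0.949 CPM in Ccr2-/- microglia. The LPS levels of the genotypes did not overlap. The interaction was -2.09 ± 0.40 (SE, 95% interval -2.95 to -1.24, unadjusted p 9.59e-05, adjusted p 0.961), and DESeq2 gave -2.07 with an adjusted p of 0.0111. Across the other settings and libraries left out, the value ran from -2.33 to -1.72, apart from the BLZ945 libraries described further on. Klhdc8b fell by 2.59 and 3.85, with an interaction of -1.25 (-1.89 to -0.62). Both genes lie on chromosome 9 with Ccr2, 137 and 198 genes away in RefSeq order. In the stretch of 120 tested genes nearest to Ccr2 on one side, 5 had an interaction with an unadjusted p under 0.01, beside 0 of 120, 0 of 117 and 1 of 257 in stretches farther away, which is a description. Nbeal2 and Klhdc8b, named for their p-values, are among these 5, so the count is no independent support for them. The share of all tested genes at this threshold is not given here. The part of sequence linked to the allele was not tested.

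Xpo7, a nuclear export receptor, lay at 77.1, 88.7 and 61.1 CPM without and at 67.3, 94.1 and 70.3 CPM with LPS in WT microglia, and fell from 75.6, 106 and 91.6 CPM to 41.1, 45.3 and 34.0 CPM in Ccr2-/- microglia. Its interaction was -1.21 (-1.79 to -0.64, unadjusted p 0.0004). Anxa3, an annexin, had changes of 0.23 and -0.66 and an interaction of -0.88 (-1.30 to -0.47, unadjusted p 0.000379). Prnp, which encodes the prion protein, rose in both genotypes to a like level, 36.3, 16.4 and 23.3 CPM in WT and 29.0, 38.8 and 29.6 CPM in Ccr2-/- LPS mice. It started from 2.77, 2.43 and 2.41 CPM in WT and from 16.4, 9.86 and 9.83 CPM in Ccr2-/- PBS mice. Its interaction of -1.88 (-2.82 to -0.94) thus goes with a difference between the genotypes before LPS. Plgrkt, a plasminogen receptor, lay at 118, 123 and 159 CPM in WT PBS against 57.2, 49.8 and 65.5 CPM in Ccr2-/- PBS mice, and at 62.0, 99.7 and 93.5 CPM against 75.9, 71.5 and 71.3 CPM with LPS, an interaction of 0.99 (0.44 to 1.54). Hspa1b, an inducible chaperone, had one of 4.55 (2.22 to 6.87, unadjusted p 0.000798), but at 21.7 CPM or less in each library. These genes were named for their p-values.

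Genotype differences were present both without and with LPS. Without LPS 674 genes differed (5.62%), 164 higher and 510 lower in Ccr2-/- microglia. With LPS 1096 differed (9.13%), 243 higher and 853 lower. The number higher was 465 without WT mouse 1 and 420 without V2m. The comparisons share no library. In both, 433 genes were called in the same direction, 68 higher and 365 lower, which is 64.2% of the former and 39.5% of the latter, and 0 in opposite directions. The log2 genotype differences had a Pearson r of 0.83 and a Spearman rho of 0.83 across 8686 genes, again as a description across genes. The BLZ945+LPS microglia of both genotypes, 6 further libraries, had the same sign for 655 of the 674 and for 1067 of the 1096 genes and called 357 and 527 of them. There 1181 of 12423 genes differed (9.51%).

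**Figure D5:**
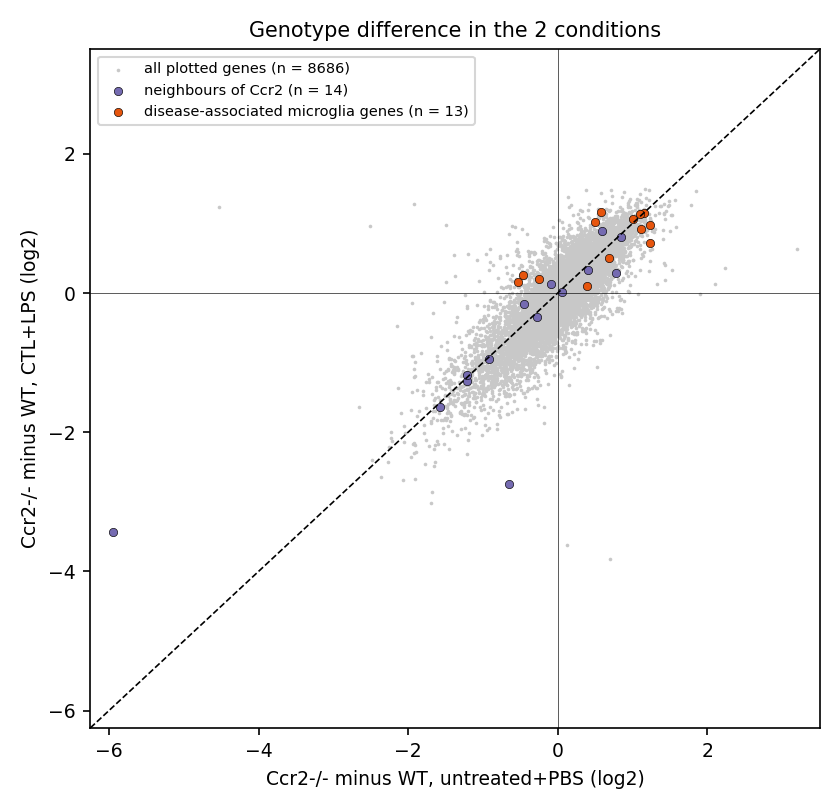
Log2 difference between Ccr2-/- and WT microglia, a point for each of the same 8686 genes, without LPS (x axis) and with LPS (y axis), 3 libraries of each genotype in each comparison. Neighbours of Ccr2 and disease-associated microglia genes are coloured, and the dashed line marks equal difference. Differences before and after LPS ran together (r 0.83), and no gene was called in opposite directions.

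Some genes near Ccr2, the homeostatic gene Cst3 and some disease-associated genes had this offset. Fyco1, an adaptor of autophagosome transport, had genotype differences of -1.57 without and -1.64 with LPS on the log2 scale, and Setd2, a histone methyltransferase, of -1.21 and -1.17. Ccr1, a chemokine receptor encoded near Ccr2, lay at 14.7, 8.24 and 15.3 CPM in WT PBS and at 0.472, 0.102 and 0 CPM in Ccr2-/- PBS mice. With LPS it rose in both, to 142, 25.8 and 71.9 CPM and to 7.39, 7.34 and 7.38 CPM, with an interaction of 2.51 (0.14 to 4.88, unadjusted p 0.0393). The level stayed lower in Ccr2-/- microglia in each condition. Of 19 tested neighbours, 4 were lower without and 6 with LPS (added were Kif9 and Nbeal2), beside 510 and 853 of all 11999 genes. Their median interaction was -0.04 over 18 above the floor. In the stretch of 120 tested genes nearest to Ccr2 on one side, 8 (6.67%) differed without LPS, beside 5.62% of all genes. With LPS 19 (15.8%) differed there, beside 9.13% of all genes and 9.34% to 13.7% in stretches farther away. In the remaining stretch of the chromosome, 2 of 4 tested genes (50%) differed without and 2 with LPS. Of the 10 chemokine receptors tested, 3 rose and 1 fell in WT and 3 rose and 2 fell in Ccr2-/- microglia, with a median interaction of 0.30 over 7. On the other side, Cst3 was higher in Ccr2-/- microglia by 1.09 and 1.04, Cd9 by 1.16 and 1.15 and Tyrobp, the signalling adaptor of Trem2, by 1.10 and 1.13. Of 34 homeostatic genes 1 was higher without and 3 with LPS, and of 16 disease-associated genes 5 in each condition. Among cytosolic ribosomal proteins 25 of 77 were higher without and 34 with LPS. For respiratory chain subunits it was 24 and 25 of 93, with 1 lower with LPS. Over all 11999 genes, 164 and 243 were higher. Fyco1, Setd2, Ccr1 and Tyrobp were named with their values known.

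The same interaction was computed with the BLZ945+LPS microglia in place of the vehicle LPS microglia. This comparison shares the 6 PBS libraries with the main one, so that values are set side by side only. It called 0 of 12423 genes (0%) with edgeR, with 734 at an unadjusted p under 0.05 and a smallest adjusted p of 0.265. The interferon-stimulated genes had a median of 0.64 there, beside 0.89, with 30 of 36 positive, and the heat shock chaperones one of 0.75, beside 0.61. NF-kappaB and feedback genes had 0.86, beside 0.20, with 9 of 25 at an unadjusted p under 0.05, glucocorticoid-responsive genes 0.61, beside 0.20, and homeostatic genes -0.21, beside 0.01. CC chemokines had 0.81, beside 0.33, and the 5 CXC chemokines 3.53, beside 0.62. Cx3cr1 had -0.41, beside 0.13. Nbeal2 had -1.23, beside -2.09, Klhdc8b -0.95, beside -1.25, and Anxa3 -0.87, beside -0.88. Plgrkt had 1.21, beside 0.99, and Cmpk2 2.19, beside 2.51. Fkbp5 had -0.30, beside 0.05.

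The libraries of subdural CNS-associated macrophages (sdCAMs, the perivascular and leptomeningeal macrophages) from the same mice gave a different count from the same test. There 368 of 12544 genes (2.93%) passed for the interaction, 67 with a larger and 301 with a smaller signed change in Ccr2-/- cells, with 2083 at an unadjusted p under 0.05. The value depended on the library, with 161 to 800 calls when each was left out in turn, the lowest without Ccr2-/- LPS mouse V2m and the highest without WT PBS mouse 9, and with 818 calls by DESeq2. Whether the interaction differed between microglia and sdCAMs was not tested.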

How the data were processed

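RNA of FACS-sorted microglia was amplified by the authors with a low-input cDNA kit and sequenced as single reads. Per the labels, the submitters' processing notes name bcl2fastq 2.20, STAR 2.7.11a, featureCounts 2.0.8 and DESeq2 1.46.0. The genome build and the strand setting were not clear from the sources used here. The authors deposited raw counts by gene symbol, without normalization, in 1 table for each genotype. Normalization, filters and tests were computed from these counts. Titles of the Ccr2-/- LPS libraries name another cell type than their other labels, and the library name and the cell type label were used. No columns were identical.

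Counts of the 12 microglia libraries (7497764 to 11330781 each) were joined by symbol, filtered with filterByExpr, scaled by TMM and fitted with edgeR 4.0.16 (glmQLFit, glmQLFTest, 4 group means, R 4.3.3). A gene was called at a Benjamini-Hochberg adjusted p under 0.05 over all 11999 genes and a log2 value beyond 1. Intervals are at 95%. A group was at the floor where each library had at most 3 counts. The common biological coefficient of variation was 0.254. DESeq2 1.42.0, limma voom (limma 3.58.1), other filters and scalings, and leaving out each library were alternatives, and the scripts were tested on simulated data. Replicates are separate mice per the labels. Reads shared by closely related genes (such as Ifit, Ccl and class I MHC genes) may be split or lost in counting, which was not examined here.

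Named genes were Ccr2, called genes, and the 2 members of each list with the highest mean CPM. Not every gene that this rule names is reported here. No gene was called, so further genes are marked in the text as picked with their values known. The members and lists were chosen with earlier results of these data known. The alternatives for list medians, for sdCAMs and for the BLZ945 genotype difference were chosen after seeing the data.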

Additional observations from a re-analysis of the deposited data

Results flagged for a closer look

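The genotype by LPS interaction in sdCAMs of the same mice was above that in microglia by count, with 368 genes called. Some WT sdCAM libraries, and no Ccr2-/- library, carry the label IEG_correction. The difference between the cell types was not tested. Genes named for microglia, reported above or not, are given here because their sdCAM interaction was called. Large sdCAM values were thus fixed by the choice. For Ccl12 the sdCAM interaction was -4.24 on the log2 scale, whereas it was 0.52 in microglia. It was 2.83 for Lars2, a mitochondrial leucyl-tRNA synthetase encoded near Ccr2, beside -0.04 in microglia. For B2m it was -2.33, beside 0.06, and for Cst3 -3.15, beside -0.05. For Fth1 it was -2.08, beside 0.20, and for Pycard, the adaptor of inflammasomes, -2.01, beside 0.31. Groups of 3 libraries were too small for a test of single outlying samples.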

How the results depend on the processing

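The count of genes with an interaction in microglia was 0 in edgeR under both other filters on low counts, DESeq2 size factors, without the gene classes removed by the study, without a fold-change limit, with 18 libraries, with BLZ945+LPS libraries, with an Xist or Y-linked class as covariate and with each library left out. It was 0 in limma voom, 1 in DESeq2 (Nbeal2) and 37 in edgeR with no filter on low counts (19 higher, 18 lower, of 21163 genes). All 37 are among the 11999 genes tested with the filter, 10 have a group at the floor, and the cause was not tested. They include the sex-linked Xist, Ddx3y and Eif2s3y and the choroid plexus markers Ttr and Kl. In sdCAMs the count was 818 in DESeq2, beside 368, and 161 to 800 with 1 library left out. The total counts for the LPS change and the genotype difference stayed within 1.5 times of the values given under each alternative, but the genes higher in Ccr2-/- microglia with LPS went from 243 to 465 without WT mouse 1 and to 420 without V2m. No LPS change called for a named gene turned its direction. List medians and interactions that were not called did turn, among them Ccl9 (-0.63, and 0.28 without WT mouse 1) and Cx3cr1 (0.13, and -0.41 with BLZ945+LPS), and the cause was not tested. Of the list medians, 81 moved by more than the criterion and 468 did not. No paired analysis was possible because each mouse gave 1 microglia library and no mouse number is shared between the groups. Intervals were widest for genes under 10 CPM (median ± 2.28). Neither deeper sequencing nor more mice was tested.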
